A study of Homo sapiens with 2 samples.

Results

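Activins and inhibins are dimeric growth factors of the TGF-β family. Activins are built from β subunits, each encoded by an INHB gene, and inhibins from a β subunit and an α subunit. GDF15 is a distant member of the same family that is secreted by stressed cells. Activins bind a type II receptor, which recruits and phosphorylates a type I receptor, and the signal is carried into the nucleus by SMAD proteins. Follistatin and its relatives capture activins outside the cell, and SMAD7 blocks the receptors from within and is itself switched on by the pathway. The liver is the main source of the activin C and activin E subunits.

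The members described here were the 10 genes INHBA, INHBB, INHBC, INHBE, FST, FSTL3, GDF15, ACVR1B, ACVR2A and SMAD7, chosen by name as the activin and inhibin β subunits, follistatins, GDF15, activin receptors and the inhibitory SMAD, out of 19775 genes with a probe set of their own. They were covered by 23 of the 54675 probe sets of the Affymetrix Human Genome U133 Plus 2.0 array, a chip of short oligonucleotide probes, and none of the 23 was annotated to a further gene. Human hepatoma HepG2 cells, an established liver cancer line, received Padma 28, a polyherbal remedy, as an ethanolic extract at 218 μg/ml, or 0.9% EtOH as solvent control, and were harvested after 18 h. RNA from the pooled cells of 3 cultures was hybridised to 1 array per treatment, so no spread between cultures, standard deviation or p-value can be given, and none of the differences below has a replicate check. All values are GCRMA log2 expression values as the authors deposited them, and each log2 difference was formed as Padma 28 minus EtOH.

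A gene was represented by the brightest of its own probe sets, and every probe set of a member is also given. The most frequent value of an array plus 2 log2 units was taken as the limit for a signal above background, at 4.25 with EtOH and 4.35 with Padma 28. All 9 measured hepatocyte markers, albumin (ALB) among them, were above the limit on both arrays, with differences from -0.55 to -0.05. Of 13 measured markers of fibroblasts, endothelium and leukocytes 9 were below the limit on both arrays, PTPRC, CD3E, VWF, CDH5, COL3A1 and DCN among them, and COL1A1, PDGFRB, PECAM1 and LYZ were above it. The 18 hybridisation spike-ins differed by a median of -0.09, from -0.15 to 0.10. In extracts of pooled cells, fewer cells that express a gene and less RNA per cell cannot be told apart.

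With Padma 28, INHBE was 2.18-fold higher and SMAD7 2.74-fold lower than with EtOH, and the brightest probe sets of the other 8 members lay within 0.5 log2 units of 0. Of all 19775 genes, 0.875% were more than 2-fold higher and 0.384% more than 2-fold lower. Among the 10361 genes above background on at least 1 array these shares were 1.57% and 0.705%, or 2.28% either way. The members were chosen with earlier results of these data known, so the shares are a background and not a test of the members. Of the 9 members above background, 4 had values above 0 and 5 below, with a median of -0.05, beside a median of 0.06 over all genes above background.

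**Figure D1:**
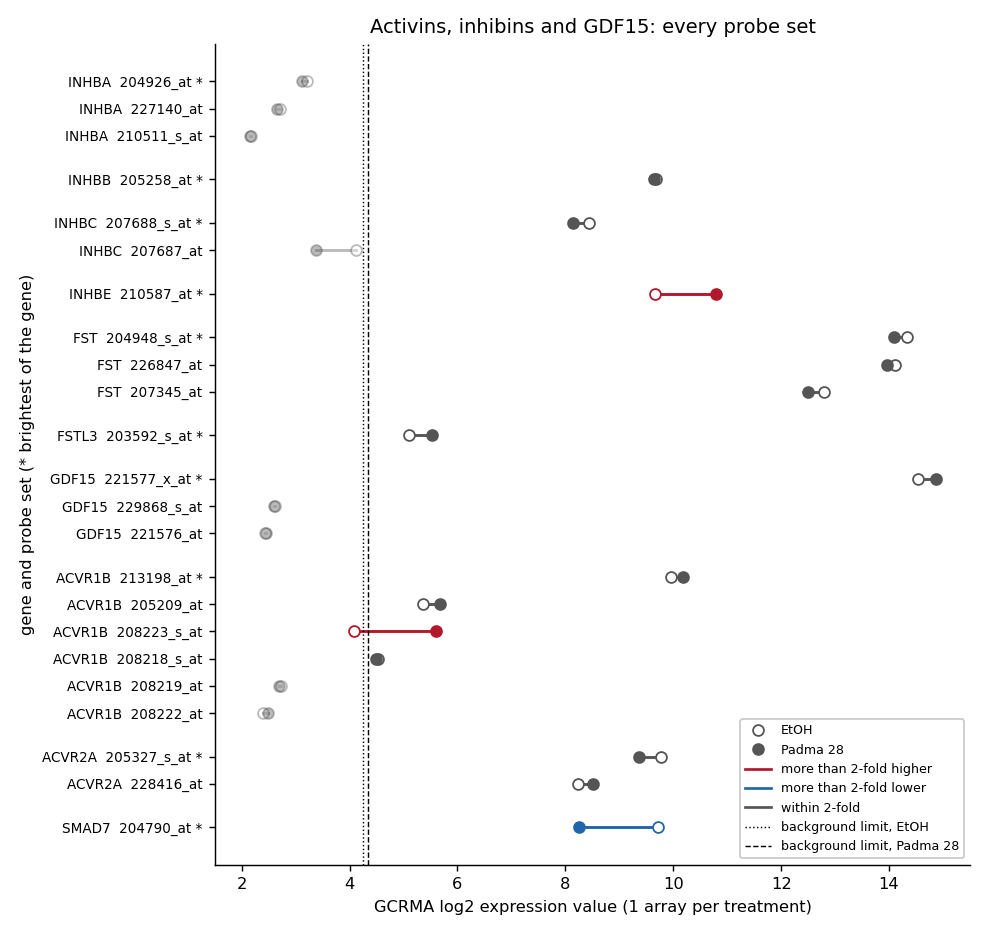
GCRMA log2 expression value (horizontal axis) of each of the 23 probe sets of the 10 genes (vertical axis) with EtOH (open circles) and Padma 28 (filled circles), 1 array per treatment, with faded symbols for probe sets below background on both arrays and vertical lines at the background limits. The lines of INHBE and of 1 dim ACVR1B probe set run to the right by more than 2-fold, that of SMAD7 runs to the left, and all others are shorter.

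To show the sequence at which transcription of these genes begins, the 300-base windows that RefSeq places around them (250 bases before to 50 after the start, build GRCh38.p14) were read for 5 short motifs on both strands. A window was found for 9 of the 10 members, 12 windows in all, and INHBE was not matched. Those of SMAD7, the member with the largest difference, are shown for its first and second of 3 starts, together with those of GDF15 and of INHBC, the gene next to INHBE. Capitals mark the motifs.

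SMAD7, first start, chr18:48950916-48951215, minus strand: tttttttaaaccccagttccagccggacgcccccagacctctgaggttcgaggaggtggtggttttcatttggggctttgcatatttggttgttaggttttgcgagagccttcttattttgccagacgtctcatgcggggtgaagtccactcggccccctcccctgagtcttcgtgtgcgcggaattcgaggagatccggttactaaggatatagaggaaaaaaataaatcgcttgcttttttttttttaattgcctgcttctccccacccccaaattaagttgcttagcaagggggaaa
SMAD7, second start, chr18:48949284-48949583, minus strand: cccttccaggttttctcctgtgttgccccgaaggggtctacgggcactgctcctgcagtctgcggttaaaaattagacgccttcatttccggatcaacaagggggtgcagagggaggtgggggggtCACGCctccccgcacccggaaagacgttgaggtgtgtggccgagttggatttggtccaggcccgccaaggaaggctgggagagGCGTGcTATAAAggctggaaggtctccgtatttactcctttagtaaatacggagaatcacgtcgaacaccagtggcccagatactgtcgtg
GDF15, chr19:18385908-18386207, plus strand: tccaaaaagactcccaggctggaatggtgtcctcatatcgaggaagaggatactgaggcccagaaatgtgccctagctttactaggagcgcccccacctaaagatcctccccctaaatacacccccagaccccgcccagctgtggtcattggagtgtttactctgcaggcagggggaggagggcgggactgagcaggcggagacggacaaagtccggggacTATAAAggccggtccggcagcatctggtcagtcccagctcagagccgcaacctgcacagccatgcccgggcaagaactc
INHBC, chr12:57434534-57434833, plus strand: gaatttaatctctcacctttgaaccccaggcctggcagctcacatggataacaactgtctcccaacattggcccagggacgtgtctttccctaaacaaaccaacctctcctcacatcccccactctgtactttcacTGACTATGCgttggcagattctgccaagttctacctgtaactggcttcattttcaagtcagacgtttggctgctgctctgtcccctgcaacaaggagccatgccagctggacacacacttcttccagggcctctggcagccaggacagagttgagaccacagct

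The core of the C/EBP-ATF response element, TGATGNAA, was in none of the 12 windows and in 3.62% of all 35116 promoter windows. The core of the antioxidant response element, TGACNNNGC, was in the INHBC window at positions -114 to -106 from the start and in the third window of SMAD7 at -106 to -98, and in 13.3% of all windows. The core of the xenobiotic response element, GCGTG, stood in the second SMAD7 window at -41 to -37 and, on the opposite strand, at -124 to -120. It was also in the first ACVR1B window at -208 to -204 and in that of ACVR2A at -118 to -114, and in 36.5% of all windows. TATAAA, the core of a TATA box, was in 4 of the 12 windows and in 11.5% of all windows. It stood at -35 to -30 in the second SMAD7 window, at -29 to -24 in that of GDF15, at -11 to -6 in that of INHBA and, on the opposite strand, at -29 to -24 in that of FSTL3. The TATA motif was added after the sequences had been seen. CAGACA, a short SMAD-binding sequence, was in none of the 3 SMAD7 windows, but in the windows of INHBA and the second start of ACVR1B, and in 16.9% of all windows. Only this exact form was searched, so shorter SMAD-binding sequences, such as CAGAC in the first SMAD7 window, were not counted. No motif overlapped another. The first SMAD7 window held none of the 5. By base composition the windows were mixed. G and C made up 48.3% of the first SMAD7 window, 59.3% of that of GDF15 and 88.7% of that of INHBB. The median of all windows was 58.7%.

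Among the ligands, INHBE, the activin βE subunit made by hepatocytes, had a value of 9.66 with EtOH and of 10.79 with Padma 28, far over the limit in either case. Its log2 difference of 1.12 had rank 122 from the top among 19775 genes, with 0.612% of the genes higher. INHBE has a single probe set, so no second probe set could be set beside it. The genes with the nearest log2 difference above background on both arrays were FAM149B1 at 1.12, the export pump ABCC4 at 1.13 and TMEM131L at 1.12. With only 2 arrays this likeness rests on 1 difference per gene. For FAM149B1 and ABCC4 it is also that of the brightest probe set. A dimmer FAM149B1 probe set was at 0.52, and a dimmer one of ABCC4, at 2.99 with EtOH, under the limit, and at 5.06 with Padma 28, had only a bound of at least 1.75-fold higher.

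INHBC, the βC subunit and the next protein-coding gene to INHBE on chromosome 12, was not higher with Padma 28. Its brighter probe set went from 8.43 with EtOH to 8.14 with Padma 28, a log2 difference of -0.29. The other was at 4.12 and 3.38, below background on both arrays, so that no fold change is given for its difference of -0.74.

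INHBB, the βB subunit, was at 9.69 with EtOH and 9.64 with Padma 28, a difference of -0.05. INHBA, the βA subunit of activin A, was below background on all 3 of its probe sets. Their values were 3.21, 2.72 and 2.18 with EtOH and 3.11, 2.66 and 2.15 with Padma 28, and no fold change is given. INHA, the α subunit that turns a β subunit into an inhibin, was not among the members and went from 7.54 to 8.14, a difference of 0.60. Of the β subunits, only INHBE passed 2-fold on these 2 arrays.

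GDF15, a stress cytokine whose receptor GFRAL sits in the hindbrain, was at 14.54 with EtOH and 14.87 with Padma 28 on its bright probe set. The log2 difference of 0.33, or 1.26-fold, was exceeded by 10.1% of all genes. The other 2 probe sets of GDF15 were at background, with 2.62 and 2.44 with EtOH and 2.60 and 2.45 with Padma 28. The bright probe set is of the _x_at type, whose probes can also match other transcripts, and the GDF15 value rests on it alone. Among the 237 probe sets of a single gene with a mean of at least 14, 3 passed 2-fold upwards and 1 downwards, and the median absolute difference was 0.09. RET, the signaling partner of GFRAL, was below background on both arrays, and GFRAL itself had no probe set of its own in the annotation used here.

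**Figure D2:**
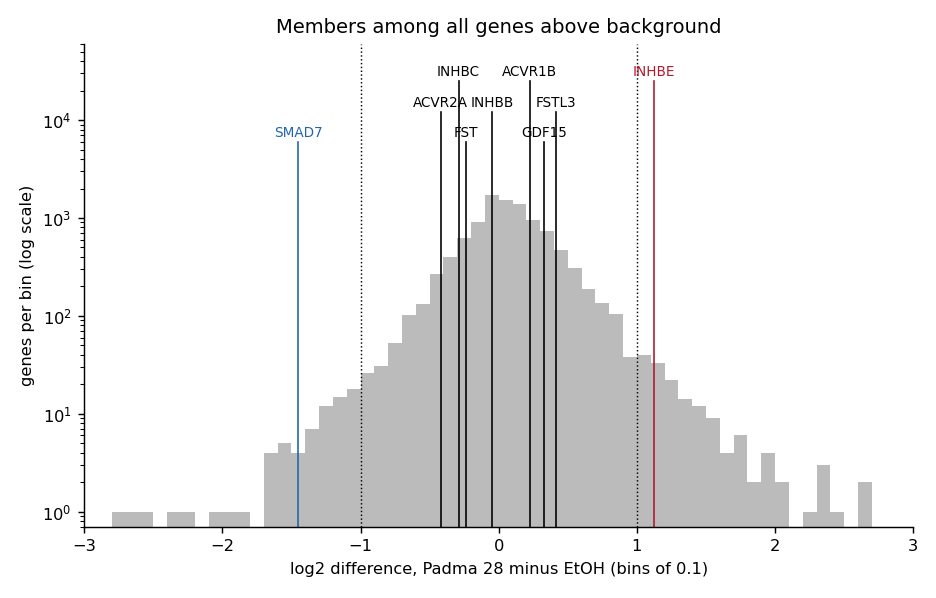
Number of genes per bin of 0.1 (vertical axis, log scale) by log2 difference, Padma 28 minus EtOH (horizontal axis), for the genes above background on at least 1 array, with vertical lines at the 9 members that are among them and dotted lines at 2-fold; 1 array per treatment, and the 8 genes beyond 3 log2 units either way are not drawn. SMAD7 lies in the thin left tail and INHBE at the start of the right tail, with the other 7 in between.

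FST, follistatin, which binds activins almost irreversibly, had high values on all 3 probe sets. The brightest was at 14.34 with EtOH and 14.10 with Padma 28, the second at 14.11 and 13.96 and the third at 12.80 and 12.49. The differences were -0.24, -0.15 and -0.31, so that each probe set was lower with Padma 28 and none by 2-fold. FSTL3, a follistatin relative with a similar binding range, was near background at 5.11 with EtOH and 5.52 with Padma 28, a difference of 0.41.

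ACVR1B, the type I receptor of activins also called ALK4, was represented by 6 probe sets that did not behave alike. The brightest was at 9.95 with EtOH and 10.17 with Padma 28, a log2 difference of 0.23, and the next at 5.36 and 5.67. A dimmer one, the third in brightness, was at 4.08 with EtOH, below the limit, and at 5.59 with Padma 28, which is at least 2.54-fold higher. This was the only one of the 6 past 2-fold. A further dim probe set was at 4.53 and 4.49, and the last 2 did not reach the limit on either array. One of these, at 2.39 and 2.49, is annotated to the same transcript accession as the probe set that passed.

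ACVR2A, a type II receptor that binds the ligand first, gave opposite differences on its 2 probe sets. The brighter went from 9.78 with EtOH to 9.36 with Padma 28, a difference of -0.42, and the other from 8.24 to 8.52, a difference of 0.28. The gap of 0.70 between them was large for this data set. Over 4912 genes with at least 2 probe sets above background on both arrays, the 2 brightest differed by a median of 0.14, and 2.99% had a gap of this size or more. No direction is therefore given for ACVR2A.

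SMAD7, the inhibitory SMAD that competes for activin and TGF-β receptors and draws ubiquitin ligases to them, was at 9.71 with EtOH and 8.26 with Padma 28. The log2 difference of -1.45 had rank 19 from the bottom among 19775 genes, and both values were well above background. Like INHBE, SMAD7 has a single probe set. The nearest log2 differences among genes above background on both arrays were those of the prostaglandin receptor gene PTGDR2 at -1.46, TAFA4 at -1.44 and NT5E, an ectonucleotidase, at -1.39, whose 3 other probe sets lay between -0.78 and -0.13. SMAD6, the other inhibitory SMAD, was at 5.11 and 5.10, a difference of -0.02.

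Around the members, the remaining TGF-β family ligands were mostly silent, with 6 of 24 measured genes above background on at least 1 array and none past 2-fold. BMP4, a bone morphogenetic protein, went from 11.06 to 10.46, a difference of -0.60. LEFTY1, an antagonist of Nodal, was below the limit at 4.09 with EtOH and at 4.96 with Padma 28, at least 1.63-fold higher. GDF7 differed by 0.27 and TGFB1 by 0.18.

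Of 16 other receptors and co-receptors 7 were above background, beside the same 10361 of 19775 genes. The 7 had a median difference of -0.21, and none passed 2-fold. ACVR1, a type I receptor of activins and BMPs also called ALK2, went from 9.10 to 9.75, a difference of 0.65. TGFBR2 and TGFBR3, the type II receptor of TGF-β and its co-receptor betaglycan, which also serves inhibins, differed by -0.51 and -0.53. The type II receptor BMPR2 was at -0.39, ACVR2B at -0.21 and TGFBR1 at -0.13. The second probe sets of TGFBR2, at -0.86, and TGFBR3, at -0.50, were lower as well.

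None of the SMADs that carry the signal passed 2-fold. SMAD2 and SMAD3, which are phosphorylated by activin receptors, differed by 0.13 and -0.20, and SMAD4, their common partner, by -0.06. All 3 SMAD3 probe sets above background on both arrays were lower, from -0.50 to -0.20, while those of SMAD2 ranged from -0.07 to 0.36 and those of SMAD4 from -0.11 to 0.36. Of 20 genes of SMADs and intracellular modulators above background, none passed 2-fold, and they lay on both sides of 0, 8 above and 12 below, with a median of -0.02, where 41.9% of all genes above background were below 0. The split moved with the scaling, to 11 above and 9 below with median centring and 9 above and 11 below with loess centring, so it gives no direction. The largest differences were those of the corepressors SKI at -0.52, TGIF1 at 0.44 and SKIL at -0.41. The SMAD phosphatase PPM1A followed at 0.39. A dimmer PPM1A probe set was at -1.07, and the other dimmer ones lay between -0.08 and 0.31. Among 4 other secreted or membrane antagonists above background, the latent TGF-β binding protein LTBP3 was at -0.38, chordin (CHRD) at 0.28, TWSG1 at 0.22 and the pseudoreceptor BAMBI at -0.19.

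**Figure D3:**
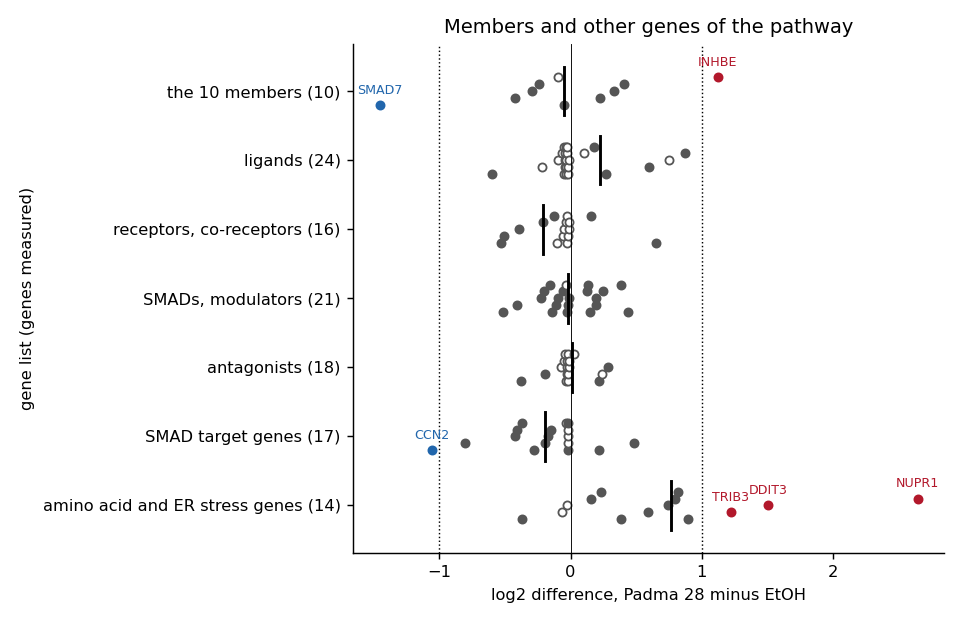
Log2 difference, Padma 28 minus EtOH (horizontal axis), of the 10 members and of the genes of 6 lists (vertical axis, brackets give how many genes were measured), 1 array per treatment. Filled points are genes above background on at least 1 array, open points the others, black bars the medians of the filled points, and dotted lines mark 2-fold; most SMAD target genes above background lie left of 0, while most amino acid and ER stress genes lie right of it.

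Genes that SMADs are known to induce lay mostly below 0. Of 13 SMAD target genes above background, 11 had lower values with Padma 28 and 2 higher, with a median of -0.19, whereas 41.9% of all genes above background had lower values. With median centring 9 and with loess centring 10 of the 13 were below 0, beside 35.8% and 43.8% of all genes above background. CCN2, a matricellular growth factor formerly named CTGF, was the only one past 2-fold by the brightest probe set. It went from 15.00 to 13.94, a difference of -1.06. For FN1, the brightest probe set differed by -0.15, and those next in brightness by -0.16, -0.11 and -0.14. Its dimmest probe sets, also above background, had the larger differences of -0.93, -1.07 and -0.74. ID3 and ID1, inhibitors of differentiation that answer to BMP signals, were at -0.80 and -0.42. HAMP, the iron hormone hepcidin and another BMP target, was at 0.48. Many of these genes answer to other pathways too, and the list holds SKIL, SMAD6 and BAMBI, which are also counted above. The list was chosen with earlier results of these data known. CDKN1A and SMAD6, both at -0.02, are counted among the 11 with lower values.

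Genes of the amino acid and endoplasmic reticulum stress response mostly had higher values with Padma 28. Of 12 above background 11 had values above 0, with a median of 0.77, beside 58.1% and a median of 0.06 over all genes above background. More than 2-fold higher were 3 of the 14 measured, beside 0.875% of all genes. This list too was chosen with earlier results of these data known. ATF4, the transcription factor at its centre, went from 12.49 to 13.31, a difference of 0.82. DDIT3, the factor CHOP downstream of it, was at 1.51, the pseudokinase TRIB3 at 1.22, the stress protein NUPR1 at 2.65, SESN2 at 0.90 and ATF3 at 0.79. FGF21, a stress hormone of the liver, and CHAC1, a target of ATF4, were below background on both arrays. INHBE, at 1.12, lay above the median of these genes and GDF15, at 0.33, below it, both within their range of -0.37 to 2.65. Any link between these genes and INHBE or GDF15 was not tested.

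How each member's value moved with the processing of the same 2 arrays was taken from 11 alternatives. INHBE stayed between 1.07 and 1.15 and SMAD7 between -1.50 and -1.28, past 2-fold in the same direction in all 11. Both have a single probe set, so the choice of probe set and the filters could not change their values. Only added constants, centring and normalization could. FST stayed between -0.31 and -0.15 and INHBB between -0.09 and -0.02. The GDF15 value was 0.01 where the bright _x_at probe set was left out or the median over all probe sets was taken. That value is the difference of a probe set below background on both arrays. ACVR2A turned to 0.28 without _x_at and _s_at probe sets.

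**Figure D4:**
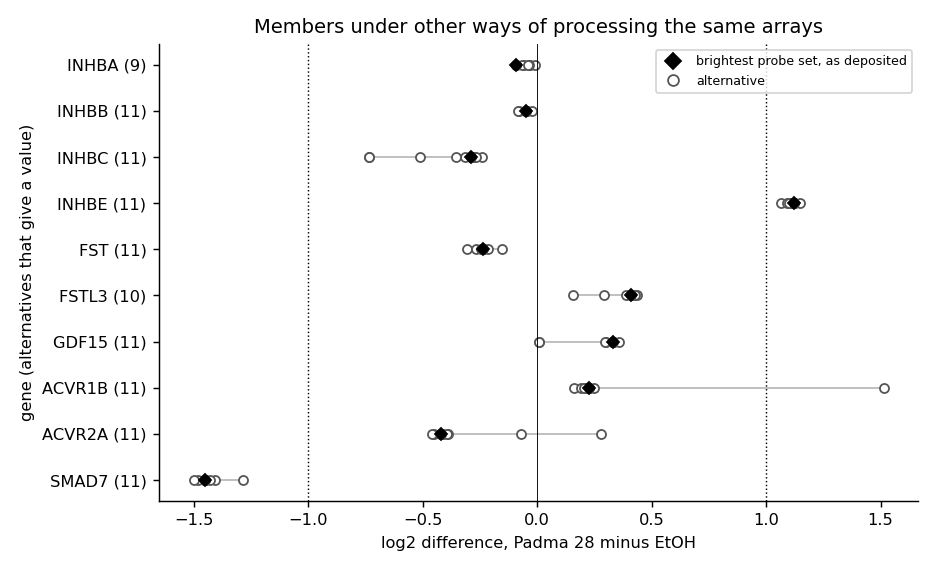
Log2 difference, Padma 28 minus EtOH (horizontal axis), of each member (vertical axis, with the number of alternatives that give a value in brackets), as deposited with the brightest probe set (diamonds) and under the alternatives (open circles), from 1 array per treatment; dotted lines mark 2-fold. INHBE and SMAD7 stay outside the 2-fold lines throughout, and ACVR1B passes 2-fold under 1 alternative only, the probe set with the largest difference. INHBE and SMAD7 have a single probe set each, so alternatives in probe set or filter cannot move them.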

How the data were processed

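Gene expression was measured with 1 Affymetrix Human Genome U133 Plus 2.0 array per treatment, EtOH and Padma 28, on RNA pooled from 3 cultures each. The authors ran GCRMA, which corrects background from probe composition, equalises quantiles and combines the probes of a set by median polish, and deposited the log2 values of all 54675 probe sets. GCRMA 2.28.0 under R 2.15.1 is named in the submitters' processing notes, and earlier versions in the paper. The unspecific filter it mentions was not applied. Quantile normalization makes the values relative to the whole array.

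Groups came from the sample labels. Probe sets were named from the platform annotation, with symbols updated through Entrez identifiers (RefSeq, GRCh38.p14), and those of several genes (1801) or none (11777) were left out. The log2 difference of the brightest own probe set was taken for each gene and set against 2-fold, as in the paper. The limit for background was the most frequent value in bins of 0.1 plus 2. For a gene below it on 1 array, the fold change is a lower bound against that limit, and below it on both none is given. No test was made. Precision is limited by the number of arrays.

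The members, lists and motifs were chosen with earlier results of these data known. Named were all members, up to 4 genes with the largest difference above background in each list, key genes of the pathway whatever their value, and the 3 genes nearest in log2 difference to each member past 2-fold. SMAD6, FGF21, CHAC1 and the genes with a discordant probe set were picked with their values known. Of the 115 genes in the lists, 105 had a probe set of their own, and 1 further list is not reported here. Alternatives covered the probe set, filters, added constants, centring and normalization. The steps were tested on simulated data. The tools were pandas 2.3.3 and numpy 2.4.6 in Python 3.11.15, statsmodels 0.14.6 for the loess curve and matplotlib 3.10.9 for plots.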

Additional observations from a re-analysis of the deposited data

How the results depend on the processing

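A value counted as moved when it changed by more than 0.14 log2 units, the median gap between the 2 brightest probe sets of a gene, or, for a count, by more than 1.5 times. Of 107 values of single members under the 11 alternatives, 10 moved and none of the members past 2-fold changed sign. INHBE and SMAD7, with a single probe set each, could not move with the choice of probe set or the filters. The count of 2 members past 2-fold and their median difference stayed within these limits, but taking the probe set with the largest difference added ACVR1B, at 1.51. The same choice raised the genes past 2-fold from 249 to 417 (264 higher, 153 lower) and the pathway genes from 4 to 7, the added ones being RGMB, FN1 and PPM1A. These counts use the log2 difference whether or not a value is below the limit. The RGMB probe set was below it with EtOH, and its bound was only at least 1.92-fold higher. Adding 16 or 64 to both linear values left 151 genes (97 higher, 54 lower) or 98 (64 higher, 34 lower), since dim probe sets then move less. FSTL3, near background, fell to 0.16 with 64 added, and INHBC was at -0.74 without _x_at and _s_at probe sets, where FSTL3 had no value. INHBA had no value with a filter on low values. No paired analysis was possible because each treatment has 1 array, and for the same reason no array could be left out. Signal over background limits FSTL3, INHBA and the dim probe sets of ACVR1B and INHBC.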
